A study of Mus musculus with 15 samples.

Results

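The respiratory chain of iNKT cells was read from RNAseq libraries as 97 protein-coding genes out of 48795 listed gene identifiers. They were taken by symbol alone, as the genes named Nduf (a, b, c, s or v followed by a number), Sdha to Sdhd, Uqcr, Cox4 to Cox8 and Atp5 in the nucleus (84 genes), and the mt-Nd, mt-Cytb, mt-Co and mt-Atp genes of the mitochondrial genome (13 genes). A further 10 processed pseudogenes with matching symbols were left out. Grouped by symbol, 37 nuclear genes fell to complex I, 4 to complex II, 8 to complex III, 18 to complex IV and 17 to complex V. A symbol does not settle the complex in which a protein sits, as for Ndufa4. Of the mitochondrial genes, 7 belong to complex I, 1 to complex III, 3 to complex IV and 2 to complex V.

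The respiratory chain passes electrons from NADH (complex I) and succinate (complex II) through complex III and cytochrome c to oxygen at complex IV, and complex V, the ATP synthase, uses the resulting proton gradient to make ATP. Mitochondrial genes encode subunits of all of these complexes except complex II, and are transcribed inside the organelle as long polycistronic RNAs. Nuclear genes encode the other subunits, whose proteins are imported, so that each mixed complex needs the products of both genomes.

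iNKT cells are T cells with an invariant TCR that recognise lipids on CD1d. They had been sorted from WT C57BL/6 mice aged 6 weeks, with no treatment and no altered allele, as cells binding the CD1d tetramer and TCRβ antibody and lacking B220, CD11b, CD11c and CD8. Libraries made with the NuGEN Ovation Ultralow kit from 15 samples, labelled as polyA RNA, were compared, 4 each from thymus, spleen and mesenteric LN (mLN) and 3 from inguinal LN (iLN, where replicate 1 was not analysed here). Replicates 1 and 2 carry the label batch Second (7 samples) and replicates 3 and 4 the label batch First (8 samples), without a statement of what differed between batches. The labels call the samples biological replicates and give same-numbered samples the same unit name across tissues. They do not say whether 1 mouse or a pool gave each sample, so the tests measure the spread between these samples. LN suspensions were made with collagenase, DNAse and NADase and those of spleen and thymus by mashing, so the tissue and the preparation cannot be told apart.

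The deposited expected counts summed to between 1152702 (thymus replicate 2) and 8670570 per sample. T cell and iNKT markers (12 of 13 passed the filter on low counts) summed to 6763 to 13448 TPM. Of these, Tbx21 was called lower in batch Second (−1.29 on the log2 scale), where 3.82% of all genes were called. Cd28 (0.54), Cd3d (−0.47) and Il2rb (−0.46) also had an adjusted p under 0.05 between batches (edgeR), as did 10.6% of all genes. Against spleen and thymus, Klrb1c (−1.21), Tbx21 (−1.04) and Il2rb (−0.63) were called lower in LNs and Zbtb16 (0.71) higher, where 1.72% of all genes were called. B cell markers summed to 2.14 to 6.94 TPM in thymus, 5.17 to 104 in spleen, 4.26 to 12.5 in mLN and 13.3 to 40.7 in iLN, and red cell markers to 3.72 to 66, 68 to 340, 1.24 to 3.9 and 2.29 to 16.8. Among the B cell markers, Blk had a mean of 34.1 normalised CPM in iLN and of 1.93, 3.47 and 3.75 in thymus, spleen and mLN. It was the only B cell marker with an adjusted p under 0.05 in the 4 tissues together (edgeR, 0.0236), where 6.57% of all genes passed. Myeloid and dendritic cell markers summed to 98.3 to 266 TPM in thymus and 11.5 to 83.1 in the other tissues, with Fcer1g higher in thymus than in spleen (means of 57.8 and 4.8 normalised CPM) and Lyz2 lower (0.326 and 15.5), and markers of immature or CD8 thymocytes to 8.62 to 48.9 in all tissues. By batch, red cell markers ranged from 2.29 to 229 TPM in First and from 1.24 to 340 in Second, and B cell markers from 2.14 to 40.7 and from 4.15 to 104. Their part in the results below was not tested. In libraries of bulk RNA, fewer cells of a type and less RNA per cell cannot be told apart.

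Several mitochondrial genes share sequence with each other or with the nucleus, which bears on how fragments are counted, so the shared stretches are shown here. On the mitochondrial genome (GRCm38, plus strand) mt-Atp8 and mt-Atp6, which encode subunits 8 and a of complex V, share 43 bases (chrM:7927-7969), and mt-Nd4l and mt-Nd4 of complex I share 7 bases (chrM:10167-10173). Capitals mark the shared bases in the stretches chrM:7907-7989 and chrM:10147-10193.
mt-Atp8 and mt-Atp6: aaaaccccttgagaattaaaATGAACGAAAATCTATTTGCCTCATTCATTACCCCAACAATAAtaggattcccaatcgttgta
mt-Nd4l and mt-Nd4: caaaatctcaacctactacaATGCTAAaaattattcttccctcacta
mt-Nd6, also of complex I, lies on the minus strand (chrM:13552-14070). The sources used here do not state that the counting used strand, so reads of mt-Nd6 and of transcripts opposite to it cannot be told apart.

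A stretch of chromosome 1 (chr1:24611535-24616197, GRCm38) holds annotated pseudogenes that are near-identical copies of 7 mitochondrial genes. Gm10925 matches mt-Atp6 over 678 bases, Gm28437 matches mt-Co3 over 783 bases, and Gm28661, Gm28439 and Gm10222 match mt-Co2, mt-Nd4 and mt-Nd4l, all with no mismatch. Gm29216 matches mt-Co1 over 483 bases with 1 mismatch. Gm28438 differs from mt-Nd3 by T3C, counted from the 5′ end of mt-Nd3, over 345 aligned bases. The first 90 bases of mt-Nd3 (chrM:9459-9548, plus strand) and of Gm28438 (chr1:24613030-24613119, minus strand), with the differing base in capitals, show how little separates such a pair.
mt-Nd3: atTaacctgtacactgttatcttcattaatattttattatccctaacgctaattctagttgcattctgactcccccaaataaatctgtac
Gm28438: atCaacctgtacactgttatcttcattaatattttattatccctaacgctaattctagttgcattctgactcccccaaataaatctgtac
Of the nuclear genes, Atp5g1, Atp5g2, Atp5l, Cox5b, Cox7c, Ndufa12, Ndufb4 and Ndufs5 also have annotated copies of at least 99% identity.

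RSEM, which the authors used, divides fragments that align to several genes between them, and it divided these pairs unevenly from sample to sample. Of the fragments of mt-Atp6 and Gm10925 together, mt-Atp6 received 54.6% to 98.6% in batch First and 15.5% to 47.6% in batch Second, with no overlap. mt-Co3 received between 0.108% and 94.1% of its pair in batch First and between 0.0572% and 72.4% in batch Second, and stood at 0 normalised CPM in thymus replicate 2 and 0.569 in thymus replicate 4 against 150 to 635 in the other 13 samples. The share was between 0% and 100% for both mt-Nd3 and mt-Nd4l. It was steady for mt-Co1 (85.9% to 92.5%) and stood at or above 99.9% for mt-Co2 and mt-Nd4. Among nuclear genes, Atp5g2 (subunit c of complex V) received 0% to 51.7% of the fragments it shares with Gm10175 and Gm10231, and Ndufb4 of complex I 18.7% to 100% of those shared with Ndufb4c. For the mitochondrial genes and Atp5g2, values after summing gene and copy are given beside those of the gene where a comparison is described.

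**Figure D1:**
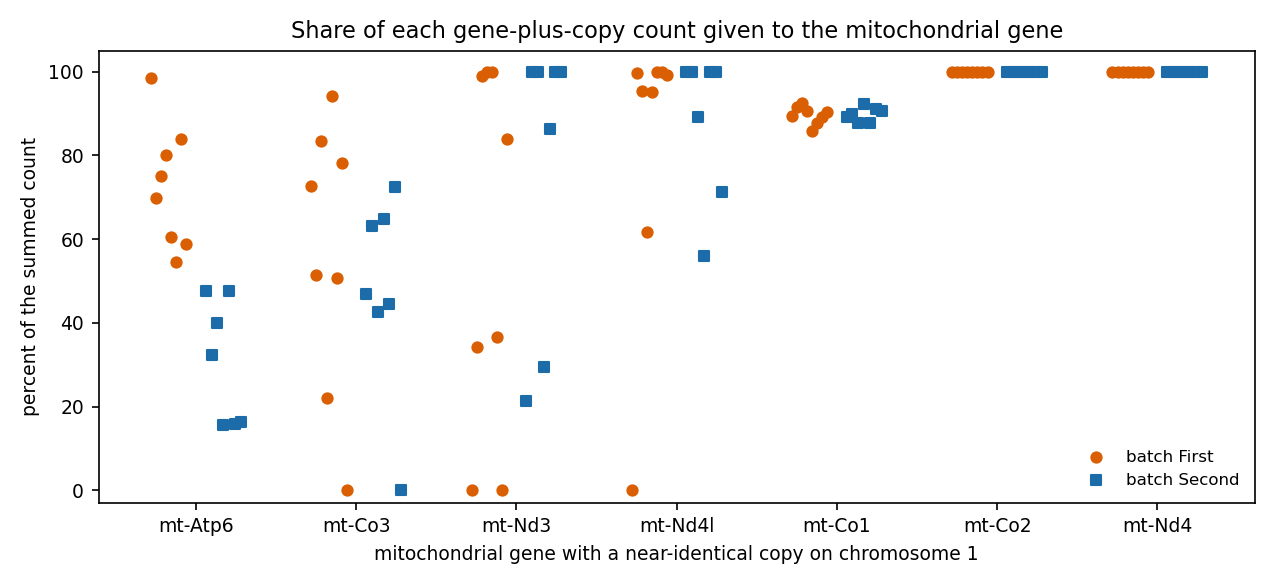
Percent of the summed expected count of a mitochondrial gene and its chromosome 1 copy that was given to the mitochondrial gene, for 7 genes in 15 samples (1 point per sample, circles for batch First, squares for batch Second). mt-Atp6 separates the batches, at 54.6% to 98.6% against 15.5% to 47.6%, mt-Co3, mt-Nd3 and mt-Nd4l scatter widely, and mt-Co2 and mt-Nd4 stay near the top.

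Levels were compared between genes as TPM, which is per length. Of the 97 genes, 89 passed the filter on low counts, 13 of 13 mitochondrial and 76 of 84 nuclear genes. Median TPM over the 15 samples ran from 179 (mt-Nd3) to 6108 (mt-Co1, the catalytic subunit of complex IV) among mitochondrial genes and from 1.79 (Atp5s) to 1039 (Atp5b, the catalytic β subunit of complex V) among the 76 nuclear genes. The middle of these medians was 1196 TPM for the mitochondrial and 54.4 TPM for the nuclear genes. With the complexes grouped by symbol, the nuclear gene with the highest median level under complex I was Ndufa4 (173 TPM), whose symbol does not settle its complex. It was Sdha, the flavoprotein of complex II, in complex II (104), Uqcrh in complex III (168), Cox7c in complex IV (359) and Atp5b in complex V.

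Where 1 subunit has alternative isoforms, the widely expressed form had the higher level. Cox4i1 stood at 112 to 376 TPM and Cox4i2 at 0 in 13 of 15 samples, with a highest value of 2.56. Cox6a1 stood at 132 to 277 TPM and Cox6b1 at 71 to 230, whereas Cox6a2, known from heart and muscle, was at 0 throughout and the testis form Cox6b2 was at most 2.03. Cox8a stood at 97.6 to 276 TPM. Ndufa4l2, Cox7b2 and Cox8c had no counts in any sample, and Cox8b had a total count of 1. Cox7a1, the heart and muscle form of subunit 7a, was at 0 in 12 samples and at 4.66 to 15.4 TPM in 3 LN samples, on a total count of 24, whereas Cox7a2 stood at 21.4 to 71.4. These 8 low isoforms (Cox4i2, Cox6a2, Cox6b2, Cox7a1, Cox7b2, Cox8b, Cox8c and Ndufa4l2) are the members that did not pass the filter. Of the 3 genes for subunit c of complex V, which encode the same mature protein, Atp5g3 stood at 43.7 to 290 TPM, Atp5g1 at 33.2 to 122, and Atp5g2, with its copies, is uncertain.

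The summed TPM of the 13 mitochondrial genes separated the batches in thymus, spleen, mLN and iLN. In thymus it was 35400 and 24676 in the 2 samples of batch Second and 10441 and 10592 in those of batch First. In spleen it was 27738 and 34525 against 10972 and 11261, and in mLN 38228 and 34790 against 18559 and 20808. In iLN it was 39849 in the single sample of batch Second and 10845 and 31659 in batch First. The lowest samples of batch Second (24676 in thymus replicate 2 and 27738 in spleen replicate 1) lay below iLN replicate 4 of batch First, so that the batches overlapped over all tissues through that 1 sample. The mean was 33601 ± 5477 (SD, n = 7) in batch Second and 15642 ± 7637 (SD, n = 8) in batch First.

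The summed TPM of the 84 nuclear genes did not separate the batches. It was 7319 ± 696 (SD, n = 7) in batch Second and 7539 ± 1452 (SD, n = 8) in batch First, with a lowest value of 5127 (iLN replicate 3) and a highest of 9502 (mLN replicate 4). Atp5b alone made up 12.7% to 26.1% of this sum in batch Second and 8.14% to 13.8% in batch First. Without Atp5b the sum was 5835 ± 643 (SD, n = 7) in batch Second and 6711 ± 1284 (SD, n = 8) in batch First. The ratio of mitochondrial to nuclear summed TPM was 4.62 ± 0.789 (SD, n = 7) in batch Second and 2.02 ± 0.664 (SD, n = 8) in batch First, a 2.35-fold difference of the geometric means. With near-identical copies added to their genes, the ratio ran from 3.66 to 6.22 in batch Second and from 1.74 to 3.82 in batch First. No test was run on these sums.

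**Figure D2:**
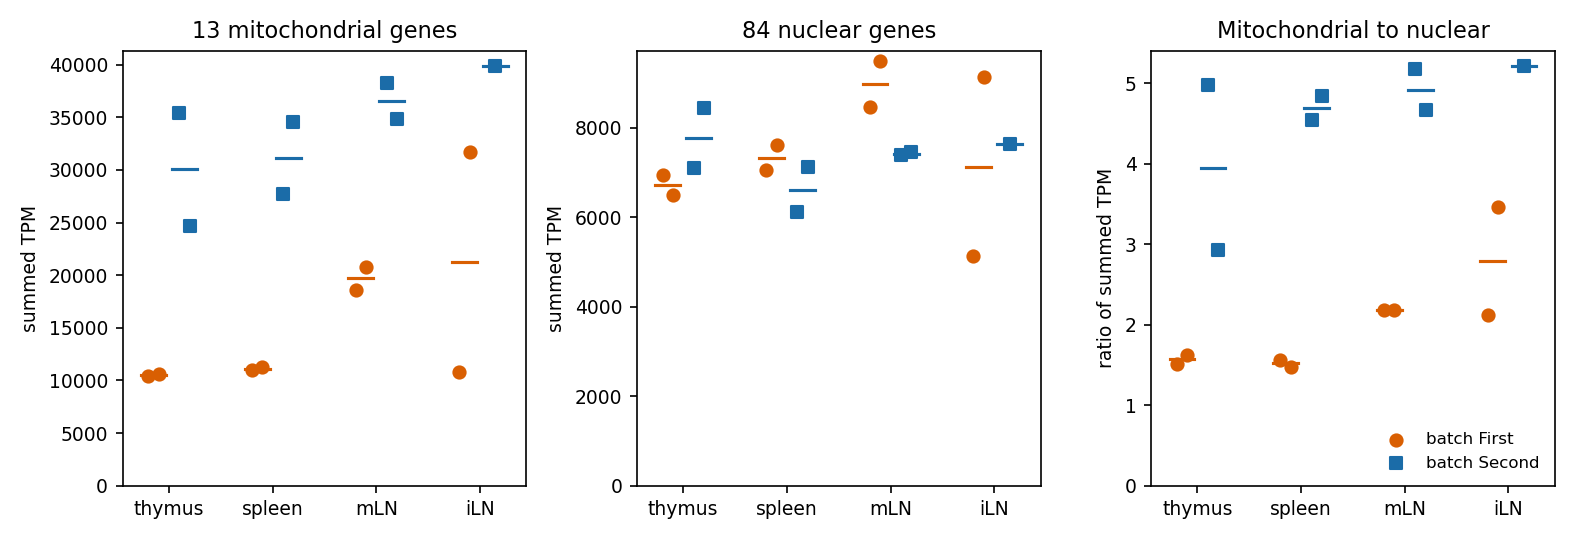
Summed TPM of the 13 mitochondrial genes (left), summed TPM of the 84 nuclear genes (middle) and their ratio (right) in each sample, by tissue and batch, with a line at the mean of each batch within a tissue. The ratio lies between 2.93 and 5.22 in batch Second and between 1.48 and 3.47 in batch First, while the nuclear sum overlaps between batches.

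For single genes, batch Second was set against batch First with tissue in the model, using TMM-normalised counts, and a gene was called at an adjusted p under 0.01 and a fold change over 1.5 (edgeR). Of all 13600 genes tested, 3.82% were called, 1.67% upward and 2.15% downward. Of the 13 mitochondrial genes 6 were called, all higher in batch Second, and of the 76 nuclear genes 9 were called, all lower. The median log2 fold change was 0.92 for the mitochondrial genes, −0.53 for the nuclear genes and 0.00 for all genes. At an adjusted p under 0.05 with no limit on the fold, the counts were 8 of 13 mitochondrial genes, all higher, and 20 of 76 nuclear genes, 1 higher and 19 lower, against 10.6% of all genes, 5.32% higher and 5.24% lower.

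In complex I, mt-Nd5 showed the largest difference among the mitochondrial genes. It stood at 1250 (thymus replicate 2), 1798 (iLN), 1873 and 2321 (mLN), 1966 and 2110 (spleen) and 2336 (thymus replicate 1) normalised CPM in batch Second, and at 445 to 836 in batch First except for 1327 in iLN replicate 4. The batches thus overlapped through 1 sample on either side, and the log2 fold change was 1.63 ± 0.18 (SE; edgeR, adjusted p = 2.83e-05). mt-Nd2, mt-Nd4 and mt-Nd1 rose by 1.48 ± 0.22, 1.33 ± 0.18 and 1.15 ± 0.19 on the log2 scale. mt-Nd6, encoded on the other strand, differed by 0.53 ± 0.12 (adjusted p = 0.00748), a 1.45-fold change that misses the limit on the fold. mt-Nd4l went from 0.92 ± 0.47 (adjusted p = 0.236) to 0.82 ± 0.18 (adjusted p = 0.0055) once its copy was added, and mt-Nd3 stood at −0.18 ± 0.69, and at −0.36 ± 0.24 (adjusted p = 0.383) with its copy.

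In complexes III and IV, mt-Cytb, the cytochrome b of complex III, rose by 1.17 ± 0.14 (adjusted p = 6.98e-05). mt-Co1 was the only mitochondrial gene whose batches did not overlap, with 6181 (thymus replicate 2) to 12353 normalised CPM (iLN) in batch Second and 2809 (spleen replicate 4) to 5628 (iLN replicate 4) in batch First. Over all genes, 0.853% stood above without overlap. Its log2 fold change was 1.21 ± 0.11 (adjusted p = 3.65e-06). The other subunits of the catalytic core of complex IV did not pass the test. mt-Co2 stood at 694 to 1203 normalised CPM in batch Second and 641 to 1625 in batch First (0.13 ± 0.16, adjusted p = 0.651). mt-Co3 differed by −0.31 ± 0.93, and by −0.10 ± 0.15 (adjusted p = 0.72) with its copy.

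In complex V, the call for mt-Atp6, the proton-channel subunit a, depended on the copy. Counted alone it stood at 197 to 942 normalised CPM in batch Second and 324 to 1190 in batch First, with a log2 fold change of −0.05 ± 0.29 (adjusted p = 0.942). Summed with Gm10925 it stood at 1268 to 2384 in batch Second and 587 to 1704 in batch First, where 1704 in iLN replicate 4 is the only value over 996. The log2 fold change of the sum was 1.17 ± 0.19 (adjusted p = 0.000787). mt-Atp8 differed by 0.92 ± 0.23 (adjusted p = 0.0149). With copies summed for all genes, 8 of 13 mitochondrial genes were called, the 6 above with mt-Atp6 and mt-Nd4l. That fit called 522 of 13592 genes. The 2 mitochondrial rRNAs, transcribed from the same genome, did not pass the test, at 0.13 ± 0.16 for mt-Rnr1 (adjusted p = 0.681) and 0.20 ± 0.14 for mt-Rnr2 (adjusted p = 0.401). Per 100 TPM of mitochondrial rRNA, the mitochondrial genes summed to 12.5 to 19.4 TPM in batch Second and 7.29 to 14.4 in batch First.

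**Figure D3:**
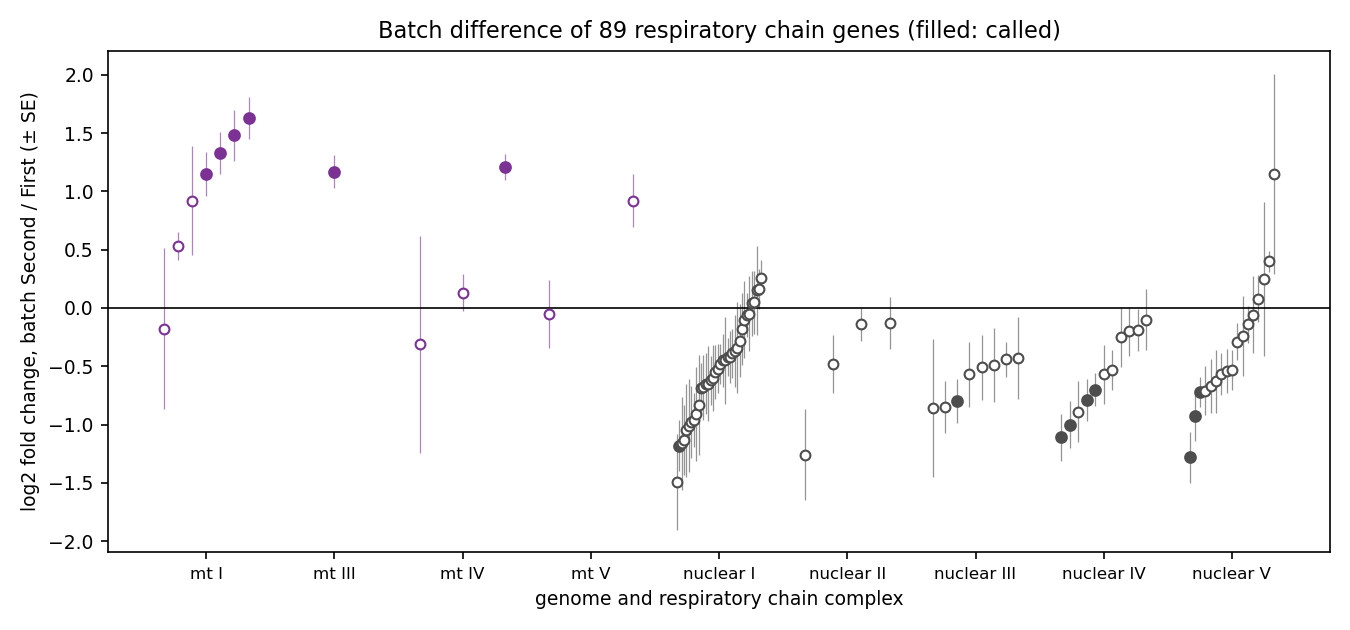
Log2 fold change of batch Second over batch First (± SE from edgeR) for the 13 mitochondrial (purple) and 76 nuclear (grey) genes that passed the filter, by complex and sorted within each. Filled points were called. The 6 called mitochondrial genes lie between 1.15 and 1.63 and the 9 called nuclear genes between −1.28 and −0.70.

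The nuclear genes called lower in batch Second came from 4 complexes. From complex V these were Atp5g3 (subunit c, −1.28 ± 0.22, adjusted p = 0.00115), Atp5a1 (the α subunit, −0.72 ± 0.13) and Atp5l (subunit g, −0.93 ± 0.21). From complex IV these were Cox5b (−1.11 ± 0.20, adjusted p = 0.00149), Cox6c (adjusted p = 0.00375), Cox8a (−0.79 ± 0.18) and Cox7a2l, which takes part in building supercomplexes (−0.70 ± 0.14). Ndufa1 of complex I (−1.18 ± 0.22, adjusted p = 0.00244) and Uqcrh of complex III (−0.80 ± 0.19, adjusted p = 0.00953) complete the group. With the complexes grouped by symbol, 1 of 36 tested nuclear genes of complex I was called and 0 of 4 of complex II. For complex III it was 1 of 8, for complex IV 4 of 11 and for complex V 3 of 17. In complex II, Sdhb passed at an adjusted p of 0.0437 (edgeR), and was the only one with an unadjusted p under 0.05. Its adjusted p stayed under 0.05 in 4 of 15 fits that leave out 1 sample. DESeq2 called Sdhb as well, in a fit that called 1042 of 12960 genes.

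Cox5b stood at 15.1 to 36.7 normalised CPM in batch Second and at 27.5 to 81 in batch First. In each of the 4 tissues its 2 batches did not overlap, and over all tissues they did, through iLN replicates 3 and 4 (32 and 27.5) on the one side and spleen replicate 2 on the other. The share of all genes without overlap within each tissue was not taken. Atp5g3 stood at 18.1 to 41.1 in batch Second and 36 to 106 in batch First, with iLN replicate 3 the only sample of batch First under 71. Ndufa1 stood at 7.96 to 21.6 against 26.6 to 46.4, without overlap. The other nuclear genes below without overlap were Ndufa5 and Ndufs6, both of complex I, with log2 fold changes of −1.49 ± 0.41 and −1.13 ± 0.30 (adjusted p = 0.0245 and 0.0219). Over all genes, 1.07% stood below without overlap.

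Atp5b was the exception among the nuclear genes. It was higher in batch Second by 0.40 ± 0.09 on the log2 scale (edgeR, adjusted p = 0.0111), with 527 to 1038 normalised CPM against 435 to 683. Atp5a1, whose product pairs with that of Atp5b in the catalytic head of complex V, went the other way, with 157 to 297 against 293 to 491. Of the remaining 75 tested nuclear genes, none was higher in batch Second at an adjusted p under 0.05 with edgeR. The next by p were Ndufa10 (0.26 ± 0.15, adjusted p = 0.31), Atp5s (1.15 ± 0.86, adjusted p = 0.444), Ndufs1 (0.16 ± 0.17, adjusted p = 0.608) and Ndufb2 (0.15 ± 0.38, adjusted p = 0.845).

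Leaving out 1 sample at a time, the 6 calls of mitochondrial genes held in 15 of 15 fits, as did those of Ndufa1, Atp5g3, Atp5a1 and Cox5b. The number of nuclear calls fell to 4 without thymus replicate 1, without thymus replicate 3 or without spleen replicate 3, and to 5 without spleen replicate 2 or without mLN replicate 4. Uqcrh was called in 1 of 15 such fits, Atp5l in 2 and Cox8a in 4, and each kept an adjusted p under 0.05 in all 15. On the TPM scale (limma on log2(TPM + 1)), the median of all genes moved to 0.23. Relative to that median the nuclear genes stood at −0.45 and the mitochondrial genes at 1.24, and 71.1% of nuclear genes lay below 0 instead of 88.2%. With that fit only Atp5b was called among nuclear genes, higher in batch Second, and 279 of all 13600 genes were called.

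**Figure D4:**
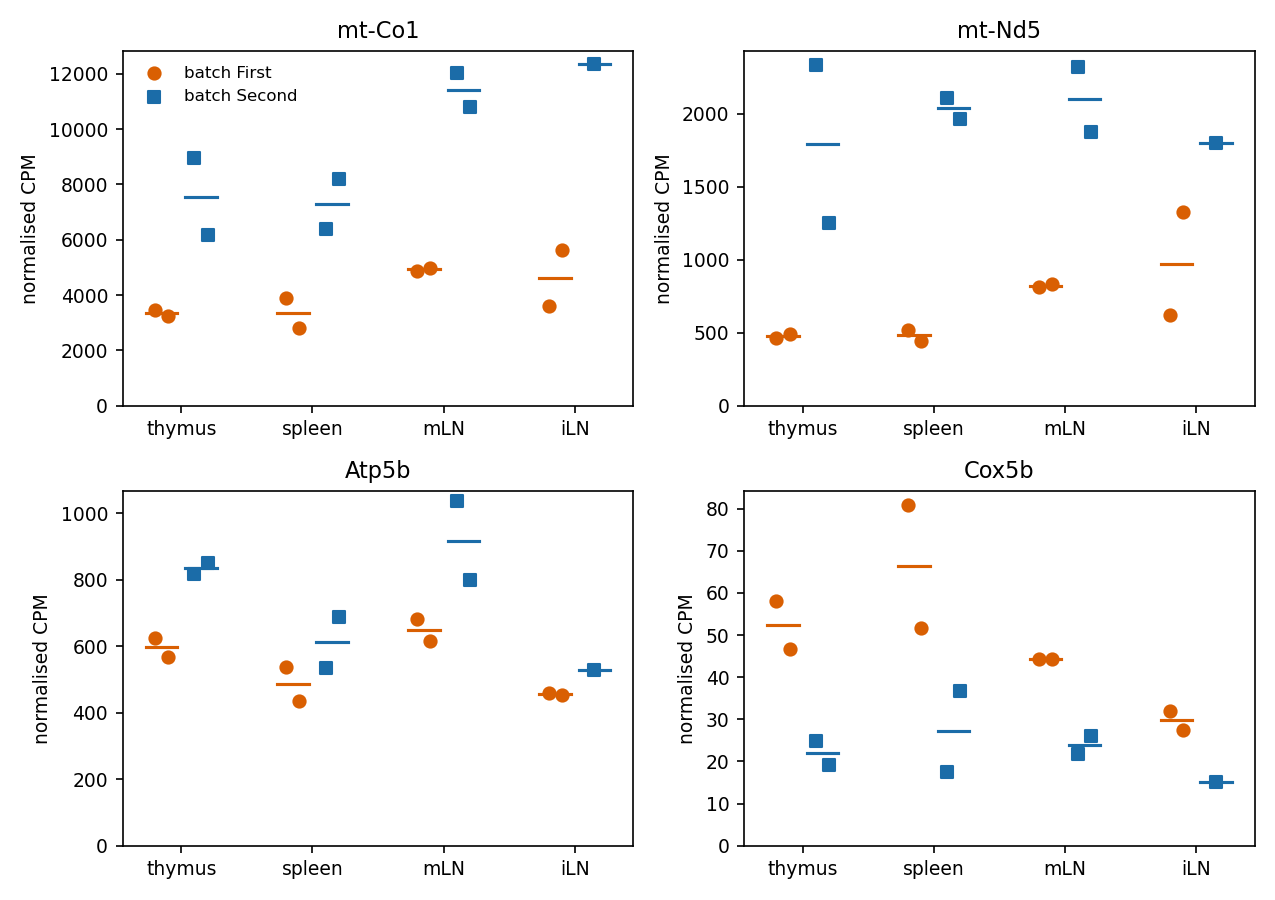
TMM-normalised CPM of mt-Co1, mt-Nd5, Atp5b and Cox5b in each sample by tissue, with circles for batch First, squares for batch Second and a line at the mean of each batch within a tissue. mt-Co1 is higher in all 7 samples of batch Second (6181 to 12353) than in any of batch First (2809 to 5628), and Cox5b is lower within each tissue.

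Gene length and library composition moved with the batch. Nuclear genes under 700 bases (36 genes) had a median log2 fold change of −0.62, and 34 of them were lower in batch Second, against −0.26 and 61% lower among all 800 genes of that length. From 700 to 1000 bases the median was −0.49 for 18 nuclear genes and −0.25 for all genes, and from 1000 to 1500 bases −0.48 for 15 nuclear genes and −0.18 for all genes. From 1500 to 2500 bases it was −0.13 for 5 nuclear genes and −0.03 for all genes, and over 2500 bases −0.65 for 2 nuclear genes, both lower, and 0.10 for all genes. Mitochondrial genes counted alone had a median of 0.33 under 700 bases (6 genes) and 0.42 from 700 to 1000 bases (2 genes). From 1000 to 1500 bases (3 genes) it was 1.33 and from 1500 to 2500 bases (2 genes) 1.42, where all genes stood at −0.18 and −0.03. The groups under 1000 bases hold mt-Atp6, mt-Nd3, mt-Nd4l and mt-Co3, which were divided unevenly with their copies. There mt-Atp6 stood at −0.05, and it was higher with its copy, as given above. Medians by length with copies summed were not taken. Nuclear genes overlapping rRNA repeats took 3.14% to 17.2% of the counts in batch First and 2.77% to 4.99% in batch Second, and the mean fragment length was 176 to 202 bases against 190 to 206. The part of length, rRNA and fragment size in the batch difference was not tested.

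Between tissues, no gene of either set was called in any of the 6 pairs with edgeR, where 1.32% of all genes were called for thymus versus spleen, 0.654% for mLN versus spleen, 1.55% for iLN versus spleen, 1.6% for mLN versus thymus, 1.5% for iLN versus thymus and 0.471% for iLN versus mLN. At an unadjusted p under 0.05, between 2 (thymus versus spleen, and mLN versus thymus) and 11 (iLN versus mLN) of the 76 nuclear genes and between 0 (thymus versus spleen, and iLN versus mLN) and 8 (iLN versus thymus) of the 13 mitochondrial genes passed. Over all genes, this share was 10.6% for thymus versus spleen, 12.2% for mLN versus spleen, 16.4% for iLN versus spleen, 13.5% for mLN versus thymus, 16.5% for iLN versus thymus and 13.8% for iLN versus mLN. The 11 nuclear genes are 14.5% of 76, and in the other 5 pairs the nuclear share was lower than that of all genes. Without the filter on low counts, edgeR called 1 to 5 mitochondrial genes in every pair except thymus versus spleen, and Ndufb7 between iLN and mLN. Among all 24238 genes of that fit, 273 to 544 were called in those pairs. The mitochondrial calls include mt-Atp6, mt-Co3 and mt-Nd3, which were divided unevenly with their copies, and mt-Nd3 was the only one between iLN and mLN. Copies were not summed in the fit without the filter. With copies summed and the filter kept, 0 mitochondrial genes were called in a pair, as with genes counted alone. DESeq2 called Atp5b and Ndufb7 between iLN and mLN, where it called 307 of 13430 genes, and no other member in a pair. limma on log2(TPM + 1) called no member, and 15 to 111 of 13600 genes in a pair. At an adjusted p under 0.05 alone, mt-Co1 was higher in mLN than in thymus (0.57 ± 0.15, adjusted p = 0.0481, and 0.2 without thymus replicate 2), where 2.85% of all genes passed, and Atp5b and Ndufb7 differed between iLN and mLN, where 1.35% did. In the test of the 4 tissues together, 0 members were called, against 3.38% of all genes, and 3 had an adjusted p under 0.05, namely Atp5b (0.0143), mt-Co1 (0.0162) and Ndufb7 (0.0415), against 6.57%. At an unadjusted p under 0.05 there were 8 of 76 nuclear and 6 of 13 mitochondrial genes, against 19.4% of all genes, and DESeq2 called Atp5b, Ndufb7 and mt-Co1. Without the filter, edgeR called Atp5b, Ndufb7 and 8 of the 13 mitochondrial genes in this test, mt-Atp6, mt-Co3 and mt-Nd3 among them. Among all genes, the test called 1077 of 14370 with DESeq2 and 1134 of 24238 without the filter.

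In iLN, Atp5b stood at 527 normalised CPM in batch Second and 460 and 453 in batch First. In mLN it stood at 1038 and 798 in batch Second and 683 and 615 in batch First, so that mLN lay above iLN in each batch. In thymus it stood between 569 and 850, and in spleen between 435 and 689, with iLN over spleen at −0.12 ± 0.14 (adjusted p = 0.75). The log2 fold change of iLN over mLN was −0.62 ± 0.14 (adjusted p = 0.033), and −0.51 in batch First and −0.81 in batch Second alone, where neither passed. mLN over spleen was 0.50 ± 0.13 (adjusted p = 0.0626) and iLN over thymus −0.49 ± 0.14 (adjusted p = 0.0648). Without iLN replicate 2 the adjusted p for iLN over mLN was 0.14.

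Ndufb7, an accessory subunit of complex I, went the other way, at 53.6 normalised CPM in iLN of batch Second and 28.2 and 33.4 in batch First, against 7.91, 7.54, 18.3 and 13.7 in mLN. All 3 iLN samples lay above all 4 mLN samples, and the share of all genes that did so was not taken. In another comparison of 3 with 4 samples, LNs against spleen and thymus in batch Second, 4.08% of all genes stood above without overlap. The log2 fold change was 1.78 ± 0.40 (adjusted p = 0.0306), and fell to 0.98 (adjusted p = 0.276) without iLN replicate 2, the sample with 53.6. Ndufs5 was also higher in iLN than in thymus (1.96 ± 0.59, adjusted p = 0.0788) without passing the test, on 2.21 to 21.2 normalised CPM. Others with small p that did not pass were Cox5b in iLN versus spleen (−1.02 ± 0.29, adjusted p = 0.0538), Ndufc2 in iLN versus mLN (−1.19 ± 0.35, adjusted p = 0.0968) and Ndufa12 in iLN versus thymus (0.91 ± 0.30, adjusted p = 0.114).

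The LNs were also set together against spleen and thymus, a comparison in which 1.72% of all genes were called. No member was called with edgeR or DESeq2, and without the filter on low counts edgeR called mt-Atp6 and mt-Nd4. In the fit without the filter, mt-Atp6 was counted without its copy. Among all genes, DESeq2 called 488 of 14839, and edgeR without the filter 532 of 24238. Of the 13 mitochondrial genes 12 had a higher estimate in LNs, with a median log2 fold change of 0.47 (0.29 without iLN replicate 4), and 9 had an unadjusted p under 0.05 (69.2%). Of the 76 nuclear genes 33 had a higher estimate, with a median of −0.06, and 8 of the 76 had an unadjusted p under 0.05. The median of all genes was 0.02, and 17.6% had an unadjusted p under 0.05. mt-Co1 passed an adjusted p of 0.01 with a fold of 1.49, just under the limit of 1.5, at 0.58 ± 0.11 on the log2 scale (adjusted p = 0.00441), and 4.26% of all genes had an adjusted p under 0.05. Without thymus replicate 1, spleen replicate 2, spleen replicate 3 or iLN replicate 3 it was called, and without any other sample it kept an adjusted p of at most 0.0218.

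mt-Co1 stood at 12022 and 10803 normalised CPM in mLN and 12353 in iLN of batch Second, above 8944 and 6181 in thymus and 6385 and 8197 in spleen. In batch First it stood at 4874 and 4977 in mLN and 3609 and 5628 in iLN, against 3459 and 3254 in thymus and 3905 and 2809 in spleen. No member separated the LNs from spleen and thymus over both batches, where 0.294% of all genes stood above and 0.375% below without overlap. For mt-Co1 the groups did not overlap in batch Second, and overlapped in batch First through iLN replicate 3 and spleen replicate 3. Within batches the log2 fold change was 0.49 ± 0.17 in First (adjusted p = 0.172) and 0.67 ± 0.15 in Second (adjusted p = 0.125).

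mt-Nd4 and mt-Nd5 of complex I had larger estimates in batch First than in batch Second. In batch First, mt-Nd4 and mt-Nd5 stood above spleen and thymus in all 4 LN samples, as did mt-Atp6 counted alone (3 of 13 genes, against 4.21% of all genes), with log2 fold changes of 0.95 ± 0.20 (mt-Nd4, adjusted p = 0.0346), 0.89 ± 0.20 (mt-Nd5, adjusted p = 0.0534) and 0.82 ± 0.24 (mt-Atp6, adjusted p = 0.115). Summed with its copy, mt-Atp6 overlapped in batch First, at 861, 996, 587 and 1704 normalised CPM in LNs against 594 to 843 in spleen and thymus, and over both batches its LN difference was 0.41 ± 0.19 (adjusted p = 0.263). In batch Second, mt-Co1 was the only mitochondrial gene to do so (4.08% of all genes), and the estimates were 0.19 ± 0.22 for mt-Nd4 and 0.01 ± 0.19 for mt-Nd5. The difference between the batches in the LN effect was tested as an interaction and did not pass for any member (mt-Nd5 −0.83 ± 0.31, edgeR adjusted p = 0.642; mt-Nd4 −0.73 ± 0.32, adjusted p = 0.706). At an unadjusted p under 0.05 there were 5 members of 89, against 6.88% of all genes. Among nuclear genes, Sdha stood above and Atp5d, Atp5g1, Sdhb, Ndufa8 and Cox5b below without overlap in batch First, where 4.44% of all genes stood below. In batch Second, Atp5g1, Cox7a2l and Cox8a stood above and Ndufs6 below, where 4.24% did, so that Atp5g1 lay on opposite sides in the batches.

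The ratio of mitochondrial to nuclear summed TPM, which is built from these same genes, was also read by batch. In batch First it was 2.19 and 2.19 in mLN and 2.12 and 3.47 in iLN, above 1.51 and 1.63 in thymus and 1.56 and 1.48 in spleen. In batch Second it was 5.18 and 4.67 in mLN and 5.22 in iLN, against 4.98 and 2.93 in thymus and 4.54 and 4.85 in spleen, so that the groups overlapped. The low value of 2.93 is that of thymus replicate 2, the library with the fewest counts. In batch First, the mitochondrial sum of iLN replicate 3 (10845) lay within the range of spleen and thymus (10441 to 11261). Its nuclear sum, 5127, was the lowest of the 15 samples. Genes overlapping rRNA repeats took 3.14% to 15.3% of the counts in LNs and 12.5% to 17.2% in spleen and thymus in batch First, with overlap through iLN replicate 3, and the ranges also overlapped in batch Second, at 3.55% to 4.99% and 2.77% to 4.78%. Their part in the ratio was not tested.

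**Figure D5:**
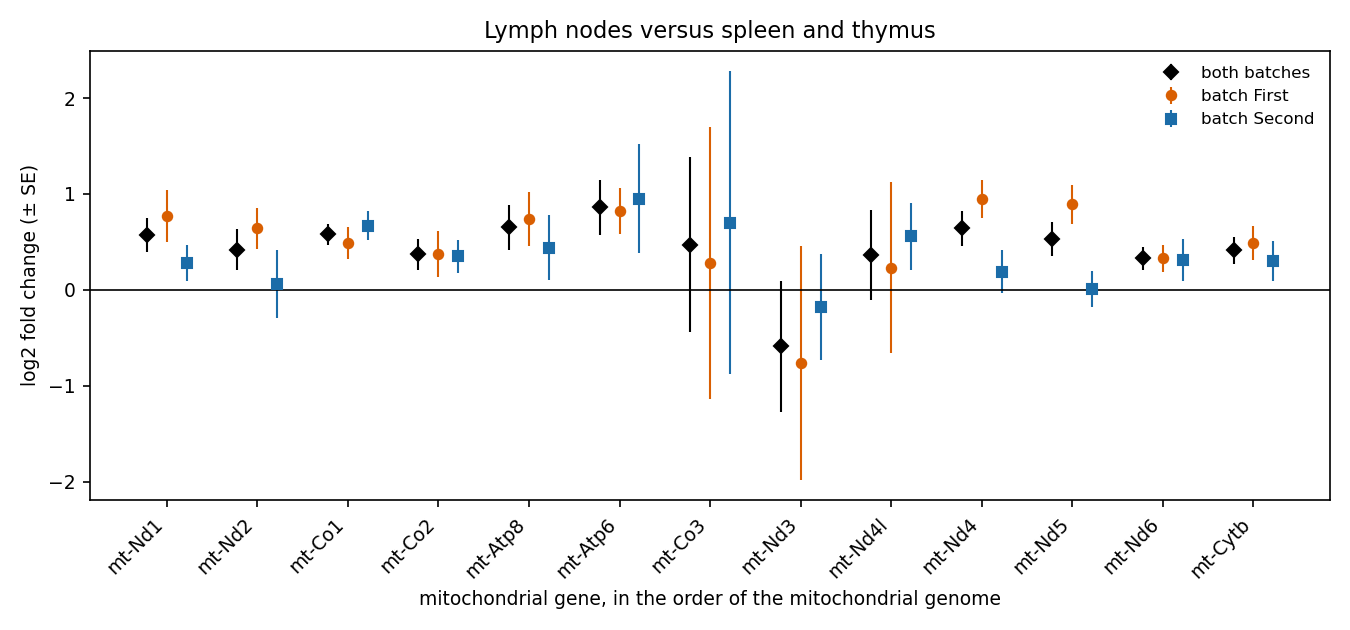
Log2 fold change (± SE from edgeR) of LNs over spleen and thymus for the 13 mitochondrial genes in the order of the genome, from all samples with batch in the model (diamonds), batch First alone (circles) and batch Second alone (squares). mt-Co1 lies between 0.49 and 0.67 in all 3 fits, mt-Nd5 at 0.89 in batch First and 0.01 in batch Second, and mt-Co3, mt-Nd3 and mt-Nd4l have wide errors.

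Genes that serve the respiratory chain without matching the symbol rule were read from lists. Between batches, 3.82% of all genes were called, 10.6% had an adjusted p under 0.05 and the median log2 fold change was 0.00. The lists were not matched to genes of like length. Of 44 tested assembly factors, 1 was called between batches (Acad9 of the complex I assembly machinery, higher in batch Second by 0.64 ± 0.12, adjusted p = 0.00197), with a list median of −0.18. Of 78 genes of the mitochondrial ribosome, 2 were called, Mrpl12 and Mrpl42, both lower in batch Second, with a list median of −0.32. Of 30 genes of mitochondrial gene expression, 0 were called with edgeR and 2 had an adjusted p under 0.05, Tfam (the mitochondrial transcription and packaging factor, −1.07 ± 0.33, adjusted p = 0.044) and Mterf3 (0.68 ± 0.19, adjusted p = 0.0295). Tfam stood at 53.4 ± 46.7 normalised CPM (mean ± SD) in batch First and 23.3 ± 10 in batch Second. The wide spread lay in iLN, at 77.3 ± 78.5, against means of 32, 32.3 and 25.3 in thymus, spleen and mLN. Of 10 nuclear regulators, 2 were called between batches in opposite directions, Gabpa (0.64 ± 0.11, adjusted p = 0.00134) and Pprc1 (−0.91 ± 0.19, adjusted p = 0.00421), both of which act on transcription of respiratory genes. Between tissues, Myc of this list, a broadly acting transcription factor, was called higher in thymus than in spleen (1.34 ± 0.27, adjusted p = 0.0071), where 1.32% of all genes were called. It was also called in the 4 tissues together (adjusted p = 0.00951), where 3.38% were. Of 13 genes of the TCA cycle, 0 were called with edgeR, with a list median of −0.03. Of 9 respiratory genes outside the symbol rule, 0 were called with edgeR in any comparison. Cycs, the cytochrome c that carries electrons from complex III to IV, was lower in iLN at an adjusted p under 0.05, by −1.32 ± 0.31 against mLN, −1.34 ± 0.31 against spleen and −1.27 ± 0.31 against thymus (adjusted p = 0.0394, 0.0185 and 0.0297). At that threshold 1.35%, 3.9% and 3.44% of all genes passed. Between LNs and the rest, where 4.26% of all genes had an adjusted p under 0.05, Cox10 was higher at that threshold without being called (0.75 ± 0.21, adjusted p = 0.0438). Cox10 takes part in making the haem of complex IV. Its mean was 22.2 normalised CPM in thymus, 42 in spleen, 48.8 in mLN and 53.6 in iLN, and mLN and iLN passed against thymus (adjusted p = 0.0277 and 0.0223) but not against spleen.

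A promoter sequence (250 bases before to 50 after the gene start, RefSeq, GRCm38.p6) was matched for 68 nuclear members. NRF1 is a transcription factor known for binding promoters of respiratory genes. Its palindromic consensus motif, searched on both strands, was found in 5 of the 68 (7.35%: Ndufa11, Uqcrc1, Cox6a1, Atp5g2 and Atp5k) and in 257 of 17492 protein-coding genes (1.47%). The motif CCGGAAGT of ETS factors, searched on both strands, was found in 5 members (7.35%) and in 5.69% of all. The promoters of Cox6a1 (chr5:115348909-115349208, minus strand) and Uqcrc1 (chr9:108936398-108936697, plus strand) are shown because both genes had an adjusted p under 0.05 between batches (Cox6a1 −0.53 ± 0.17, Uqcrc1 −0.85 ± 0.22). For Cox6a1 (edgeR, adjusted p = 0.0465) this held in 2 of 15 fits that leave out 1 sample, and for Uqcrc1 (0.0161) in 15 of 15. Capitals mark the NRF1 motif.
Cox6a1: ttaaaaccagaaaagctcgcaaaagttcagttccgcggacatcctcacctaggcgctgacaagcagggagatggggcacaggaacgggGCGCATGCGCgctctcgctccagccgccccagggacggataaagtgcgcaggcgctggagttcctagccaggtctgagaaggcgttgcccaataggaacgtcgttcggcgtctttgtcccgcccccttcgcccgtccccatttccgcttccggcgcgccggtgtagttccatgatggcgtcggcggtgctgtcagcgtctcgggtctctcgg
Uqcrc1: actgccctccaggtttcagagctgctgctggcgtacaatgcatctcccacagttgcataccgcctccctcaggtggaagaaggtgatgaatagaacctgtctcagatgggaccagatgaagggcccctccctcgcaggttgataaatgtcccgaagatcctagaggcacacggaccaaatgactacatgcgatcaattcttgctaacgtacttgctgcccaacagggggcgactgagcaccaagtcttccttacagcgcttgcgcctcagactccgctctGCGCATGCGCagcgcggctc
Atp5k and Atp5g2, with the same motif, did not pass the test (−0.06 ± 0.33 and 0.25 ± 0.66, the latter −0.32 ± 0.28 with its copies), nor did Ndufa11 (−1.16 ± 0.40, adjusted p = 0.0724). A motif match is a description of the letters and not of binding.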

How the data were processed

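RNAseq of sorted iNKT cells was analysed in 15 samples of 4 tissues and 2 batches. Per the methods and the submitters' processing notes, the authors trimmed reads with cutadapt 1.7.1 and quantified them against GRCm38.p6 with RSEM 1.2.31 and Bowtie2 2.2.9. The deposited expected counts are RSEM's estimates of fragments per gene, in which a fragment aligning to several genes is divided between them. The TPM values the authors deposited are these counts per effective length, scaled to the same sum in each sample, and the deposited FPKM values were not used.

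Gene symbols, types and coordinates came from GENCODE M21 (48435 of 48795 identifiers matched). Expected counts were rounded, filtered with filterByExpr (13600 genes), normalised by TMM and fitted with the robust quasi-likelihood model of edgeR 4.0.16 (R 4.3.3, limma 3.58.1) with tissue and batch as factors. Benjamini-Hochberg adjustment ran over all genes tested, with 0.01 as the threshold and a minimal fold of 1.5 for calls, the fold being dropped for the joint test of 4 tissues. The model was tested on simulated data. Normalised CPM are CPM of the TMM-scaled library. Sums over members have no test. Copies were annotated transcripts with at least 99% identity over 90% of the shorter transcript and at least 100 bases (BLAST 2.17.0). Depth limits genes under about 5 normalised CPM most, above all in thymus replicate 2.

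The members, gene lists and comparisons were chosen with earlier results of these data known. Genes named are the mitochondrial members, the 5 nuclear members with the smallest p in each tissue comparison (mean of at least 5 CPM), the 5 in each direction between batches, the most abundant per complex and the isoform families. Others named were singled out after their values were seen. Alternatives were DESeq2 1.42.0, RLE, scaling without mitochondrial and rRNA repeat genes, no batch term, a stricter filter (10 counts in each sample) or none, a replicate block, only the 2 tissues compared, limma on log2(TPM + 1), a threshold of 0.05 alone, and leaving out each sample. Summed copies, each batch alone and the interaction were chosen after seeing the data. The figures were drawn with matplotlib 3.10.9.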

Additional observations from a re-analysis of the deposited data

Results flagged for a closer look

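Within the 3 tissues with 4 samples, 8 of 156 sets of values had a lowest or highest sample far from the other 3 by Dixon's test, where chance gives about 1 in 20 (7.8 sets). Replicate 1 accounted for 7 of the 8. In thymus replicate 1, mt-Nd6 stood at 161 normalised CPM (89.5 to 94.8 in the others), mt-Co2 at 1089 (740 to 761) and Ndufa8 at 7.16 (21.3 to 22.6). In mLN replicate 1, Ndufa8 stood at 7.52 (16.6 to 18.4), Uqcrc2 at 48.6 (60.5 to 61.5) and Cox4i1 at 69.1 (104 to 108). In spleen, Ndufs4 stood at 28.4 in replicate 1 (51.9 to 54.3) and mt-Co3 at 635 in replicate 3 (196 to 262), where mt-Co3 also received 94.1% of the fragments it shares with its copy.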

How the results depend on the processing

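Tissue counts of 0 mitochondrial calls rose without a filter on low counts, to 2 for mLN versus spleen, 3 for iLN versus spleen, 3 for mLN versus thymus, 5 for iLN versus thymus, 1 for iLN versus mLN, 2 for LNs versus spleen and thymus and 8 for the 4 tissues together, and nuclear calls to 1 for iLN versus mLN and 2 for the 4 tissues together. Of all 24238 genes in that fit, 273 to 544 were called in these pairs, 532 for LNs versus spleen and thymus and 1134 for the 4 tissues together. The mitochondrial calls include mt-Atp6, mt-Co3 and mt-Nd3, counted without the copies with which their fragments were divided unevenly. With DESeq2 there were 2 nuclear calls for iLN versus mLN, 2 nuclear and 1 mitochondrial for the 4 tissues together and 17 nuclear between batches, and with limma on log2(TPM + 1) 1 nuclear call between batches. Among all genes, DESeq2 called 307 of 13430, 1077 of 14370 and 1042 of 12960 in these comparisons, and limma 279 of 13600. At an adjusted p under 0.05 alone there was 1 mitochondrial gene for mLN versus thymus, 1 for LNs versus spleen and thymus and 1 for the 4 tissues together, and 2 nuclear genes for iLN versus mLN, 2 for the 4 tissues together and 20 between batches. Leaving out 1 sample gave 0 to 1 nuclear calls for iLN versus spleen (1 without iLN replicate 4), 0 to 2 mitochondrial calls for LNs versus spleen and thymus, 0 to 1 for the 4 tissues together and 4 to 11 nuclear calls between batches. Of 607 alternatives for counts and sums, 574 stayed within 1.5 times the count or 1 SD of the sum. All counts except those between batches were 0 in the main fit, and a count that stayed at 0 is among the 574. Many alternatives leave out 1 sample of the same data, so the tally does not measure how firm the results are. The cause of the shifts in counts was not tested.

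Same-numbered samples, which share a unit name, correlated in their deviations from the tissue means with a mean r of 0.122 (21 pairs, lowest 0.00151). For other samples of the same batch it was 0.107. In deviations from the means of tissue and batch, the 18 same-numbered pairs had r from 0.00312 to 0.0633. In the tissues and batches used there, a single pair of samples makes each mean, so its deviations are equal and opposite. Each value therefore occurs more than once, and other pairs of the same batch mirror these by construction, at −0.0633 to −0.00312. The main model did not take the numbers as pairs. With the replicate block in place of the batch term, 0 members were called in each of the 6 pairs, in LNs versus spleen and thymus and in the 4 tissues together, as without it.

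Among single genes, with ranges over fits that leave out 1 sample, directions turned where the estimate was small or the copy decided it. mt-Atp6 between batches went from −0.05 to 1.17 with copies summed, 0.19 with limma on log2(TPM + 1) and −0.40 to 0.07 over such fits (0.03 to 0.07 without thymus replicate 2, thymus replicate 3, spleen replicate 1 or iLN replicate 4). mt-Nd3 between batches went to 1.35 with limma and ranged from −0.45 to 0.15 (0.06, 0.08 and 0.15 without thymus replicate 4, spleen replicate 1 and spleen replicate 3), and in LNs to 0.04 with copies summed. mt-Co3 between batches went to 0.02 with limma and ranged from −0.88 to 0.12 (0.12 without thymus replicate 3). mt-Nd4l in LNs went to −0.63 with limma and ranged from −0.01 (without iLN replicate 4) to 0.63. Ndufb2 between batches ranged from −0.21 to 0.33 (−0.21 and −0.00 without iLN replicate 2 and iLN replicate 4).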
